A study of Homo sapiens with 6 samples.

Results

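The genes of the nuclear pore and of nuclear transport were followed in HMC3 cells, an established human line labelled as microglia, treated with C1s-CM or control CM. Members were the rows of the deposited counts table whose symbol begins with KPN, NUP and a digit, XPO, IPO and a digit, TNPO, RANBP, RANGAP, NXF or NXT, or is RAN, TPR, POM121, CSE1L, RCC1, NDC1 or AAAS. This gave 38 of 5117 genes: 11 importins, 3 exportins, 3 mRNA export factors, 16 pore subunits, 4 genes of the Ran cycle and RANBP9. The choice used symbols alone, but every gene with a row had already passed the authors' own threshold, so a member's call restates that selection and is no separate evidence that the gene changed. In GENCODE release 29, 69 protein-coding gene symbols match the rule, and the 31 without a row (KPNA1, KPNA2, NUP98, POM121 and XPO5 among them) were not analysed here.

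The C1s-CM group (3 libraries) received CM with C1s, a complement protease that starts the classical cascade, and the control CM group (3 libraries, titled FLAG) received CM without C1s. Both groups were wild-type HMC3 cells grown in serum-containing medium, and the labels give neither the duration of treatment nor the meaning of CM. The table's counts summed to between 14195082 and 14961744 in C1s-CM and between 12730766 and 13863120 in control CM libraries, and these sums cover only the genes of the table. The labels do not state whether separate cultures were used, so the p-values reflect the spread among these 6 libraries alone, and that spread may be technical. None of 10 microglial markers looked for, AIF1, CX3CR1, P2RY12, TMEM119 and CSF1R among them, had a row, nor did any of 5 astrocyte or 4 neuron markers. A gene without a row may be expressed and unchanged, so these markers could not be read. Of 5 pericyte and fibroblast markers 2 had a row: COL1A1, a fibrillar collagen gene, at 3754 to 3898 CPM in C1s-CM and 3699 to 3779 CPM in control CM, and PDGFRB, a receptor of mesenchymal cells, at 161.5 to 170.5 CPM in C1s-CM and 151.3 to 153.7 CPM in control CM. The 2 cell type markers that could be read are thus not microglial ones. They cannot settle cell identity in a table without the microglial markers, and the cells are called HMC3 here. PDGFRB was 0.12 higher in C1s-CM and COL1A1 (0.03, adjusted p = 0.31, edgeR) missed the threshold; their part in the values of the transport genes was not tested. Levels are CPM, counts scaled to the table's total in each library after TMM scaling. The TMM factors were 0.953 to 0.960 in C1s-CM and 1.036 to 1.053 in control CM. These factors rest on genes that had been called, so the sign of a small change depends on the scaling. Log2 fold changes are C1s-CM over control CM with their standard error. A call is an adjusted p under 0.05 by edgeR (quasi-likelihood, Benjamini-Hochberg) over the 5116 genes tested.

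The nuclear pore complex is a ring-shaped channel through the nuclear envelope, built from nucleoporins: scaffold rings, membrane anchors, a central channel lined with phenylalanine-glycine repeats, filaments on the cytoplasmic face and a basket on the nuclear face. Importins carry proteins inward and release them when the small GTPase Ran, loaded with GTP, binds them in the nucleus. Exportins take up their cargo together with Ran-GTP and release it once GTP is hydrolysed in the cytoplasm. RCC1 loads Ran with GTP on chromatin and RANGAP1 triggers hydrolysis outside the nucleus, while most mRNA leaves through NXF1 and NXT1 without Ran. In microglia, as in other cells, signalling factors such as NF-kB reach the nucleus through importin alpha carriers.

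The direction of a member's change went with the base composition of its transcript, and 3 pairs of coding stretches from GENCODE release 29 (GRCh38) show the contrast. In each 120-base stretch below, printed 5′ to 3′ in frame, capitals mark a G or C at the third position of a codon. The transportins TNPO1, which fell, and TNPO2, which rose under TMM scaling but not with library totals as the only scaling, are shown over the 120 coding bases where they are most alike (101 identical), and the mRNA export cofactors NXT2, which fell, and NXT1, which rose, over theirs (98 identical); NXT1 also missed the threshold with library totals. KPNA5, with the largest fall, and RANGAP1, with the largest rise, are shown from the start codon. The pairs were chosen after their values were seen.
TNPO1: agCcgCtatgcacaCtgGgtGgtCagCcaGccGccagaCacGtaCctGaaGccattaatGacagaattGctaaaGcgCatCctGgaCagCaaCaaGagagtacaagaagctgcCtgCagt
TNPO2: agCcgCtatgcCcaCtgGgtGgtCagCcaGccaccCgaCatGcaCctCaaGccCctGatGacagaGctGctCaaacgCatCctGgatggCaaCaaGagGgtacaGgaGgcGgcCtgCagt
NXT2: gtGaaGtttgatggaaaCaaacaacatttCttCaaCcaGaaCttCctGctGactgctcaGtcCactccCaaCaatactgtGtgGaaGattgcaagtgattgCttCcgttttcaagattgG
NXT1: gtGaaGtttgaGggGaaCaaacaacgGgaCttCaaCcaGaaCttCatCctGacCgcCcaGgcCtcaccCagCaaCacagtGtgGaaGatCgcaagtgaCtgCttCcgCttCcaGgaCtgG
KPNA5: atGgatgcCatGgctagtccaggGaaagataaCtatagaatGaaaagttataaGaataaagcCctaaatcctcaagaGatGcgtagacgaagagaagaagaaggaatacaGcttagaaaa
RANGAP1: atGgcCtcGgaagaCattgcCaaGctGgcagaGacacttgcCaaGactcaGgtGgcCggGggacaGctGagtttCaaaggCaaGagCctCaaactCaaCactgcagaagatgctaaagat
Of the 40 codons in each stretch, 26 of TNPO1 and 33 of TNPO2 end in G or C, 21 of NXT2 and 33 of NXT1, and 11 of KPNA5 and 23 of RANGAP1. Over the whole coding sequence 37.9% of TNPO1 codons and 78.9% of TNPO2 codons end in G or C, although 73.2% of their 2661 aligned bases are identical. The shares are 40.8% in NXT2 and 66.4% in NXT1 (75.2% of 420 aligned bases identical), and 26.3% in KPNA5 and 71.7% in RANGAP1.

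Of the 38 members, 12 rose and 26 fell, with a median log2 fold change of -0.30, against 0.08 over all genes tested. Among all genes tested 50.9% rose and 48.5% fell, 99.4% in either direction together, so the number of members called says nothing about them, and only their direction and size are described. The members that fell made up 68.4% of the 38. CPM did not overlap between the groups for 37 of 38 members, against 97.2% of all genes, and the exception was NXF1. All 38 members had the same sign in the authors' deposited table, which rests on the same 6 libraries and is no separate evidence. With library totals as the only scaling the median over all genes was -0.05 in place of 0.08, and 1336 of the 5116 genes tested were called higher and 2517 lower. The same 26 members fell under that scaling, and only RANGAP1 and RANBP3 still rose. TNPO2, RCC1, NUP93 and RAN turned to small negative values there, and the other 6 members that had risen missed the threshold.

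**Figure D1:**
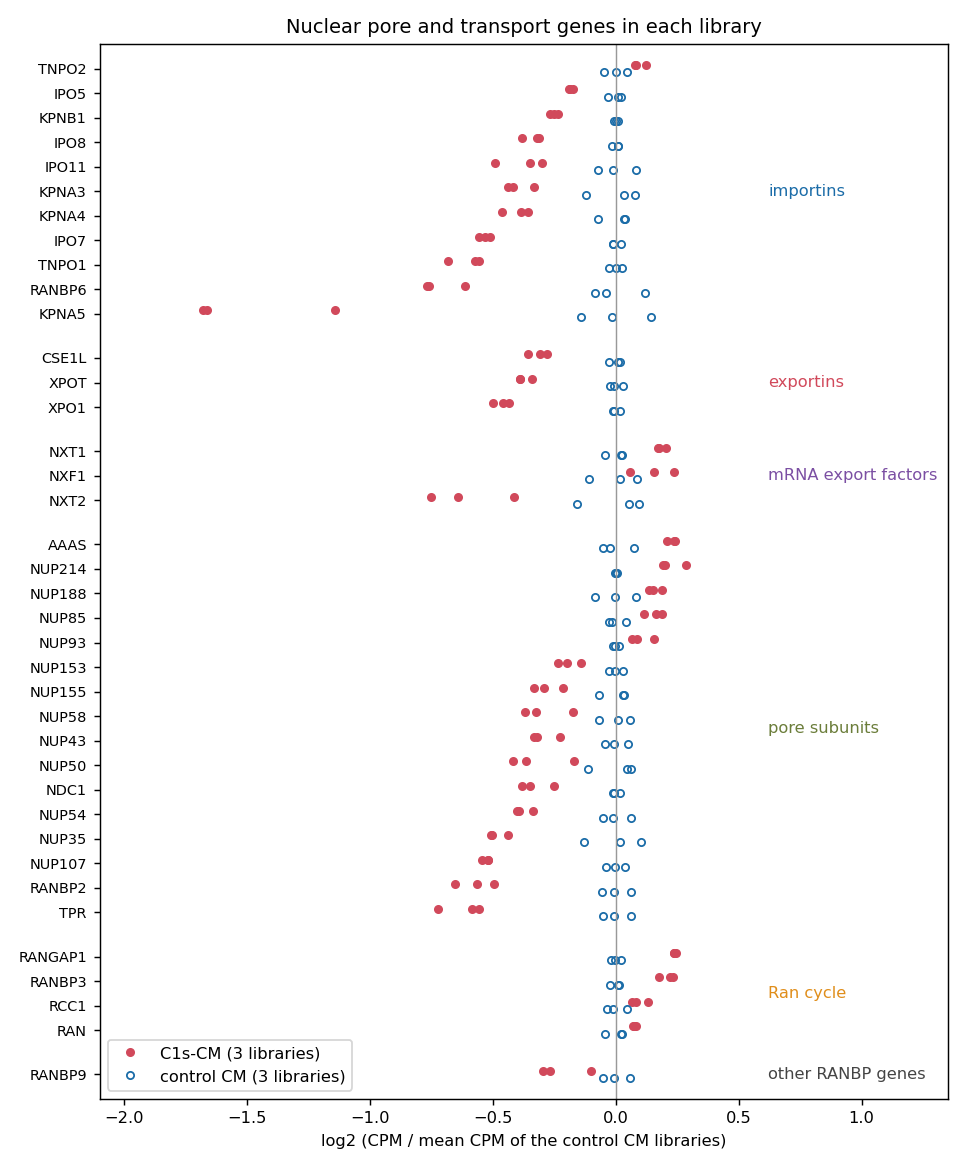
Each point is 1 library: the log2 ratio of a gene's CPM to the mean CPM of the 3 control CM libraries, with C1s-CM filled and control CM open, and genes grouped by role. Importins and exportins other than TNPO2 lie left of the control libraries, genes of the Ran cycle lie right of them, and pore subunits lie on both sides; with library totals as the only scaling TNPO2, NUP93, RCC1 and RAN turn to small negative values.

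Of the 11 importins 10 fell, against 48.5% of all genes tested, with a median log2 fold change of -0.40. Their transcripts had a median GC content of 40.3%. Among all 2235 genes under 45% GC, 2.06% had a positive log2 fold change, called or not, and the median was -0.47. KPNA5 (ENSG00000196911), an importin alpha adaptor that binds classical nuclear localization signals, had 1.32, 1.33 and 1.91 CPM in C1s-CM and 4.17, 3.82 and 4.66 CPM in control CM libraries. Every C1s-CM library lay far below every control library, and the log2 fold change of KPNA5 was -1.47 ± 0.22 (adjusted p = 1.66e-06, edgeR), to 36.1% of the control level. KPNA5 was the only member past a 2-fold fall, which 0.41% of all genes tested reached, and it was also the most weakly expressed member, with 18, 19 and 26 counts in C1s-CM and 55, 54 and 68 in control CM. Its gene lies on the plus strand of chromosome 6 (116681187 to 116741866, GRCh38).

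RANBP6, a relative of IPO5, had 13.4, 13.3 and 14.8 CPM in C1s-CM and 22.1, 24.6 and 21.4 CPM in control CM, a change of -0.71 ± 0.09 (adjusted p = 2.37e-07, edgeR). TNPO1, which imports RNA-binding proteins such as hnRNP A1, had 106.6, 98.7 and 107.7 CPM in C1s-CM and 155.5, 158.5 and 161.5 CPM in control CM, a change of -0.60 ± 0.04 (adjusted p = 5.1e-12, edgeR). TNPO2, its close relative, had 188.6, 183.0 and 183.3 CPM in C1s-CM and 167.5, 178.8 and 173.5 CPM in control CM. The groups did not overlap for TNPO2, but the rise was small, 0.09 ± 0.03 (adjusted p = 0.0109, edgeR), and without control CM replicate 1 it was 0.07 and missed the threshold (adjusted p = 0.0614). With library totals as the only scaling TNPO2 was at -0.032, and DESeq2 did not call it either (0.08, adjusted p = 0.0706).

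The general carrier KPNB1, importin beta, which works with the importin alpha adaptors, averaged 510.1 ± 5.49 CPM in C1s-CM and 607.4 ± 3.46 CPM in control CM (SD, n = 3 each), a fall of 0.25 on the log2 scale. IPO7, a carrier of ribosomal proteins and histone H1, averaged 212.4 ± 3.45 CPM in C1s-CM and 307.2 ± 4.11 CPM in control CM (SD, n = 3 each), a fall of 0.53, and its relative IPO8 fell by 0.34. IPO7 and IPO8 fell together, as did the importin alpha genes KPNA3 and KPNA4, by 0.40 each. IPO11 fell by 0.38, and IPO5, another carrier of ribosomal proteins, by 0.18, the smallest fall of any member. Per kilobase of transcript KPNB1 was the most abundant importin, at 83.1 CPM per kb in C1s-CM and 98.9 in control CM, and KPNA5 the least, at 0.134 and 0.373.

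**Figure D2:**
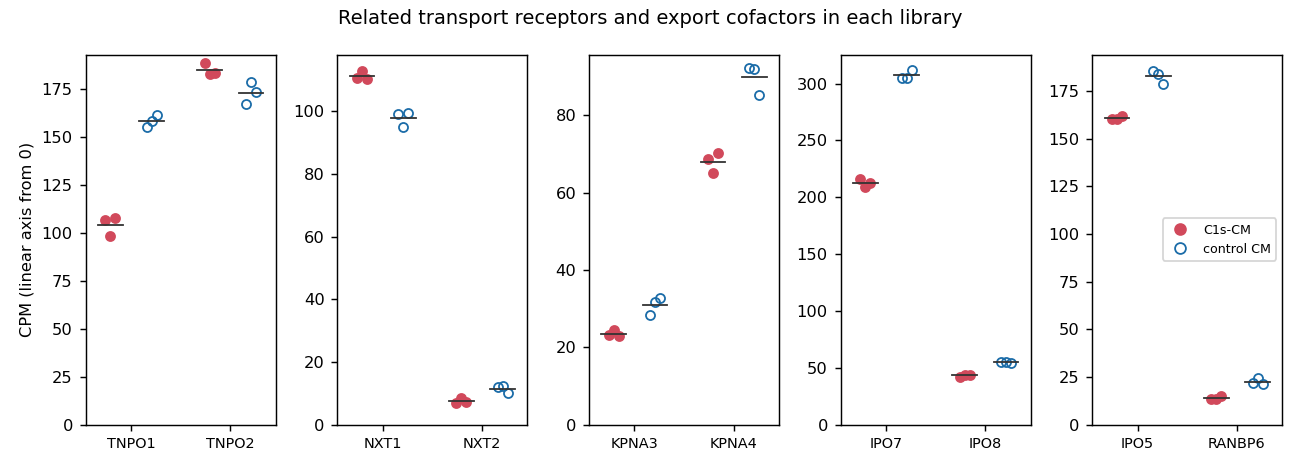
Points are CPM in single libraries on linear axes from 0, C1s-CM left and control CM right for each gene, with bars at the group means. TNPO1 and NXT2 are lower and, under TMM scaling, TNPO2 and NXT1 higher in C1s-CM, while both genes of the other 3 pairs are lower.

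All 3 exportins fell, against 48.5% of all genes tested, and the median GC content of their transcripts was 39.6%. Of all 2235 genes under 45% GC, only 2.06% had a positive log2 fold change. With the GC and length offsets given below, all 3 exportins had positive values (0.03 to 0.16), and CSE1L and XPOT were called higher. XPO1, the main exportin of proteins with leucine-rich export signals, had 212.6, 206.4 and 215.8 CPM in C1s-CM and 289.9, 290.5 and 295.2 CPM in control CM, a change of -0.46 ± 0.03 (adjusted p = 5.17e-12, edgeR). XPOT, which exports tRNA, had 118.5, 114.6 and 114.7 CPM in C1s-CM and 149.6, 147.9 and 153.1 CPM in control CM, a change of -0.37 ± 0.04 (adjusted p = 2.63e-09, edgeR). CSE1L, which returns importin alpha to the cytoplasm, had 274.4, 289.0 and 283.6 CPM in C1s-CM and 355.0, 344.6 and 353.5 CPM in control CM, a change of -0.31 ± 0.03 (adjusted p = 1.72e-09, edgeR). For each of the 3 the gap between the groups was several times the spread within them.

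The mRNA export factors were divided. NXT1, the small partner of the mRNA exporter NXF1, had 110.6, 112.7 and 110.2 CPM in C1s-CM and 99.2, 94.8 and 99.4 CPM in control CM, a rise of 0.18 ± 0.04 (adjusted p = 0.000151, edgeR). NXT2, a related cofactor, had 6.81, 8.62 and 7.34 CPM in C1s-CM and 11.9, 12.2 and 10.3 CPM in control CM, a change of -0.59 ± 0.12 (adjusted p = 0.00012, edgeR). NXF1 itself had 73.5, 78.6 and 83.2 CPM in C1s-CM and 71.3, 65.4 and 74.9 CPM in control CM. The groups overlapped for NXF1, and its rise of 0.15 ± 0.05 (adjusted p = 0.0105, edgeR) missed the threshold without C1s-CM replicate 3 (0.11, adjusted p = 0.0853) and without control CM replicate 2 (0.11, adjusted p = 0.081).

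Of the 16 pore subunits 5 rose and 11 fell (31.2% and 68.8%, against 50.9% and 48.5% of all genes tested), with a median of -0.29. With library totals as the only scaling 0 were called higher and the same 11 lower, against 1336 and 2517 of 5116 genes tested. The 3 basket genes and the 2 central channel genes with a row all fell, the cytoplasmic face had 2 rises and 1 fall, the inner ring 2 and 2, and the Y complex, the outer scaffold, 1 and 2. The falls were led by TPR, the coiled-coil protein of the basket, which had 50.7, 46.0 and 51.6 CPM in C1s-CM and 75.4, 73.2 and 79.1 CPM in control CM, a change of -0.62 ± 0.05 (adjusted p = 6.49e-10, edgeR). RANBP2, the large filament protein that binds Ran and RANGAP1, had 42.4, 44.5 and 39.8 CPM in C1s-CM and 65.4, 62.4 and 60.4 CPM in control CM, a change of -0.57 ± 0.06 (adjusted p = 5.4e-09, edgeR). NUP107, of the Y complex, had 45.8, 46.5 and 46.6 CPM in C1s-CM and 68.7, 66.8 and 65.1 CPM in control CM, a change of -0.53 ± 0.05 (adjusted p = 3.55e-09, edgeR). For TPR, RANBP2 and NUP107 every C1s-CM library lay below every control CM library.

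Smaller falls were found for NUP35 (-0.48) and NUP155 (-0.28) of the inner ring, NUP54 (-0.38) and NUP58 (-0.29) of the channel, the membrane anchor NDC1 (-0.33), NUP50 (-0.32) and NUP153 (-0.19) of the basket, and NUP43 (-0.29) of the Y complex. The rises were led by AAAS, which encodes the cytoplasmic-face protein ALADIN, with 83.1, 81.3 and 83.0 CPM in C1s-CM and 67.8, 69.2 and 74.0 CPM in control CM, a rise of 0.23 ± 0.05 (adjusted p = 0.000102, edgeR). NUP214, a repeat-bearing filament protein, had 78.0, 78.5 and 83.4 CPM in C1s-CM and 68.3, 68.6 and 68.2 CPM in control CM, a rise of 0.23 ± 0.05 (adjusted p = 0.000102, edgeR). NUP188, an inner ring scaffold, had 191.3, 195.9 and 189.2 CPM in C1s-CM and 182.1, 162.5 and 171.7 CPM in control CM, a rise of 0.16 ± 0.04 (adjusted p = 0.000331, edgeR). NUP85, of the Y complex, was 0.16 higher and NUP93, an inner ring adaptor, 0.10 higher. Under TMM scaling members of one assembly lay on both sides, NUP188 and NUP93 above the control libraries and NUP155 and NUP35 below them. With library totals as the only scaling NUP188 (0.03, adjusted p = 0.399, edgeR) and NUP93 (-0.02, adjusted p = 0.524, edgeR) were not called. With the GC and length offsets given below, NUP155 (0.17) and NUP188 (0.12) were both called higher, and NUP93 (0.07) and NUP35 (-0.14) were not called.

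All 4 Ran cycle genes with a row rose, against 50.9% of all genes tested, with a median of 0.15. Under library totals as the only scaling RAN (-0.05) and RCC1 (-0.03) turned. RANGAP1 had 568.6, 567.9 and 570.6 CPM in C1s-CM and 489.8, 475.6 and 480.8 CPM in control CM, a rise of 0.24 ± 0.03 (adjusted p = 1.98e-08, edgeR), the largest of any member. RANGAP1 is encoded on chromosome 22, minus strand (41245611 to 41286251, GRCh38). RANBP3, a cofactor of XPO1, had 143.0, 144.2 and 138.6 CPM in C1s-CM and 123.7, 120.9 and 123.6 CPM in control CM, a rise of 0.21 ± 0.04 (adjusted p = 1.11e-05, edgeR). RCC1 had 148.6, 155.5 and 150.3 CPM in C1s-CM and 146.5, 138.6 and 140.7 CPM in control CM.

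The rise of RCC1, 0.09 ± 0.04 (adjusted p = 0.0149, edgeR), missed the threshold without C1s-CM replicate 2 (0.07, adjusted p = 0.0719), without control CM replicate 2 (0.08, adjusted p = 0.0547) and in DESeq2 (0.08, adjusted p = 0.0835). RAN, the GTPase itself and the most abundant member per kilobase (441 CPM per kb in C1s-CM and 419 in control CM), had 1174, 1179 and 1168 CPM in C1s-CM and 1132, 1129 and 1081 CPM in control CM. The groups did not overlap, but the rise of RAN was 0.07 ± 0.03 (adjusted p = 0.0101, edgeR) and missed the threshold without control CM replicate 3 (0.06, adjusted p = 0.0622). RANBP9, a scaffold of a ubiquitin ligase complex that is no transport factor by its known role, had 69.6, 60.7 and 62.0 CPM in C1s-CM and 74.2, 77.7 and 71.9 CPM in control CM, a change of -0.22 ± 0.05 (adjusted p = 0.000613, edgeR).

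Direction and transcript GC content went together in the members as in the whole table. Of 27 members with a GC content under 50% of the representative transcript, 1 was higher in C1s-CM, and this was RAN (43.1%). All 11 members at or above 50% were higher. Over the genes tested that had a GC value, 6.15% of 2587 under 50% and 98% of 2525 at or above it had a positive log2 fold change, called or not. The median log2 fold change was -0.38 for the 27 members, against -0.44 for all genes of that range, and 0.16 for the 11 members, against 0.24. Spearman's rho between log2 fold change and GC content was 0.894 across the 38 members, and with transcript length it was -0.402. These points share their 6 libraries and are no replicates, so no p is given.

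The classes differed in GC content too. The median was 40.3% for the importins, 39.6% for the exportins, 42.0% for the pore subunits, 51.4% for the mRNA export factors and 53.9% for the Ran cycle, against 49.4% for all genes. Values with offsets for base composition are given next.

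**Figure D3:**
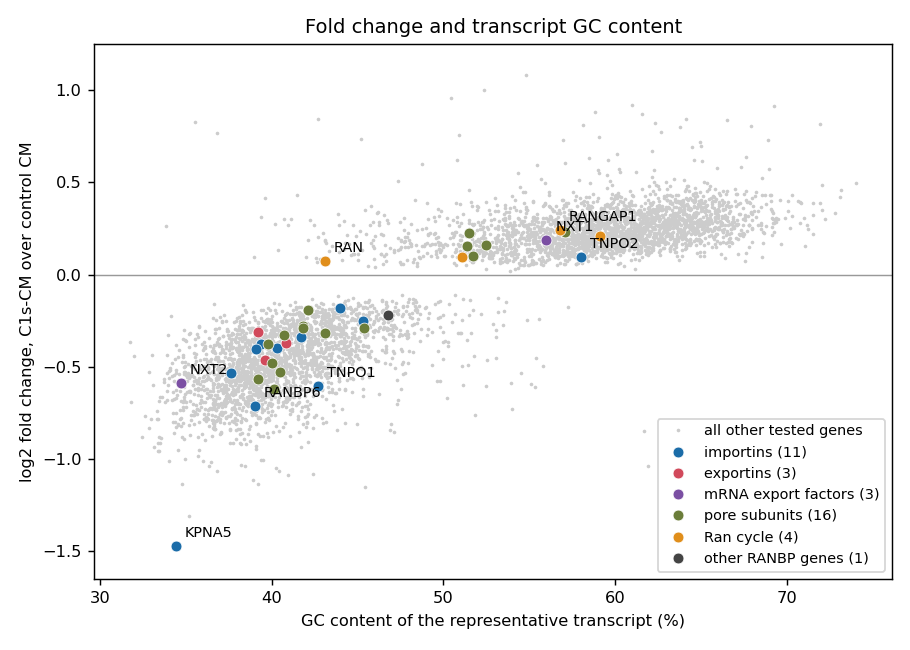
Each point is a gene, with the GC content of its representative transcript in percent across and the log2 fold change of C1s-CM over control CM upward; members are coloured by role, and 6 of the other genes lie outside the plotted range. Members below 50% GC other than RAN lie under 0, and those above 50% lie over 0 under TMM scaling.

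Offsets for GC content and length, fitted in each library over all genes of the table, changed this picture. With them 14.9% of all genes rose and 10.6% fell, 25.5% in either direction, and of the members 11 rose, 3 fell and 24 missed the threshold. The median of the members was then 0.06, against -0.0012 over all genes. The offsets are fitted on genes that had been called, and would also remove a biological difference that follows GC content. Of the 26 members that had fallen, 2 fell with offsets, 6 rose and 18 missed the threshold. Of the 12 that had risen, 5 rose with offsets, 1 fell and 6 missed it.

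The 2 that fell under both were KPNA5 (-0.78 ± 0.22, adjusted p = 0.0116, edgeR with offsets) and TNPO1 (-0.28 ± 0.04, adjusted p = 4.01e-06, edgeR with offsets). KPNA5 missed the threshold without C1s-CM replicate 1 (-0.68, adjusted p = 0.0645) and without control CM replicate 3 (-0.72, adjusted p = 0.0523). TNPO1 held in each set of 5 libraries, but with the longest annotated transcript in place of the representative one its value was 0.0034 (adjusted p = 0.956). The 5 that rose under both were RAN, NUP214, NUP188, NUP85 and RANGAP1.

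RAN had the largest value of any member with offsets, 0.37 ± 0.02 (adjusted p = 1.54e-10, edgeR with offsets), and 0.34 to 0.39 with each library left out. With the longest transcript RAN was at 0.30 and NUP93 was above it at 0.31 (adjusted p = 8.81e-08, edgeR), although NUP93 was at 0.07 and not called with the representative transcript. NUP214 was 0.24 ± 0.04 higher with offsets (adjusted p = 0.000292, edgeR), and 0.14 higher with GC offsets alone (adjusted p = 0.0261). NUP188 (0.12) missed the threshold with offsets without C1s-CM replicate 2 (adjusted p = 0.0717), without control CM replicate 2 (adjusted p = 0.116), without control CM replicate 3 (adjusted p = 0.0581) and with GC offsets alone (0.035, adjusted p = 0.483). NUP85 (0.11) held in each set of 5 libraries, but missed the threshold with the longest transcript (0.033, adjusted p = 0.409) and with GC offsets alone (0.069, adjusted p = 0.0637). RANGAP1 (0.07, adjusted p = 0.0233, edgeR with offsets) held in 2 of the 6, those without C1s-CM replicate 1 and without control CM replicate 1, and had adjusted p of 0.0504 to 0.0799 in the other 4. RANGAP1 also missed it with the longest transcript (0.040, adjusted p = 0.217) and with GC offsets alone (0.030, adjusted p = 0.373).

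Several transport receptors and pore genes changed direction with the offsets. CSE1L was 0.16 ± 0.03 higher (adjusted p = 0.000564, edgeR with offsets), and NUP153 0.22 ± 0.03 higher (adjusted p = 2.9e-05, edgeR with offsets). NUP155 (0.17), KPNA4 (0.14), IPO5 (0.11) and XPOT (0.10) also rose with offsets, and TNPO2 (-0.10) fell. Of these, only CSE1L and NUP153 held in each set of 5 libraries. With the longest transcript the rise of NUP153 was smaller, 0.094 (adjusted p = 0.0411, edgeR with offsets). That of IPO5 was larger, 0.25 (adjusted p = 2.17e-06, edgeR with offsets). KPNA4 and XPOT missed the threshold with the longest transcript (adjusted p = 0.0512 and 0.112) and with GC offsets alone (adjusted p = 0.13 and 0.14), and TNPO2 missed it with the longest transcript (adjusted p = 0.0797). NUP155 missed the threshold without C1s-CM replicate 2 (0.13, adjusted p = 0.0538), IPO5 without C1s-CM replicate 3 (0.10, adjusted p = 0.063) and without control CM replicate 3 (0.08, adjusted p = 0.106), XPOT in all 6 sets (adjusted p of 0.0502 to 0.139), and KPNA4 and TNPO2 in 4 sets each (adjusted p of 0.0532 to 0.253 and of 0.0804 to 0.163). For KPNA4 these were the sets without C1s-CM replicate 1, C1s-CM replicate 3, control CM replicate 2 and control CM replicate 3, and for TNPO2 those without C1s-CM replicate 2, C1s-CM replicate 3, control CM replicate 2 and control CM replicate 3. XPO1 (0.03), IPO7 (0.04), KPNB1 (0.03), RANBP2 (-0.02), NUP107 (-0.05), TPR (-0.11) and NXT2 (-0.02) missed the threshold with offsets. Of the members not called with offsets, NUP93, NUP58 (0.29, adjusted p = 0.00134) and XPO1 (0.082, adjusted p = 0.0313) were called higher with the longest transcript, and TPR (-0.15, adjusted p = 0.0344) was called lower with GC offsets alone. By class the medians with offsets were 0.04 for importins, 0.10 for exportins, -0.02 for mRNA export factors, 0.06 for pore subunits and 0.08 for the Ran cycle.

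**Figure D4:**
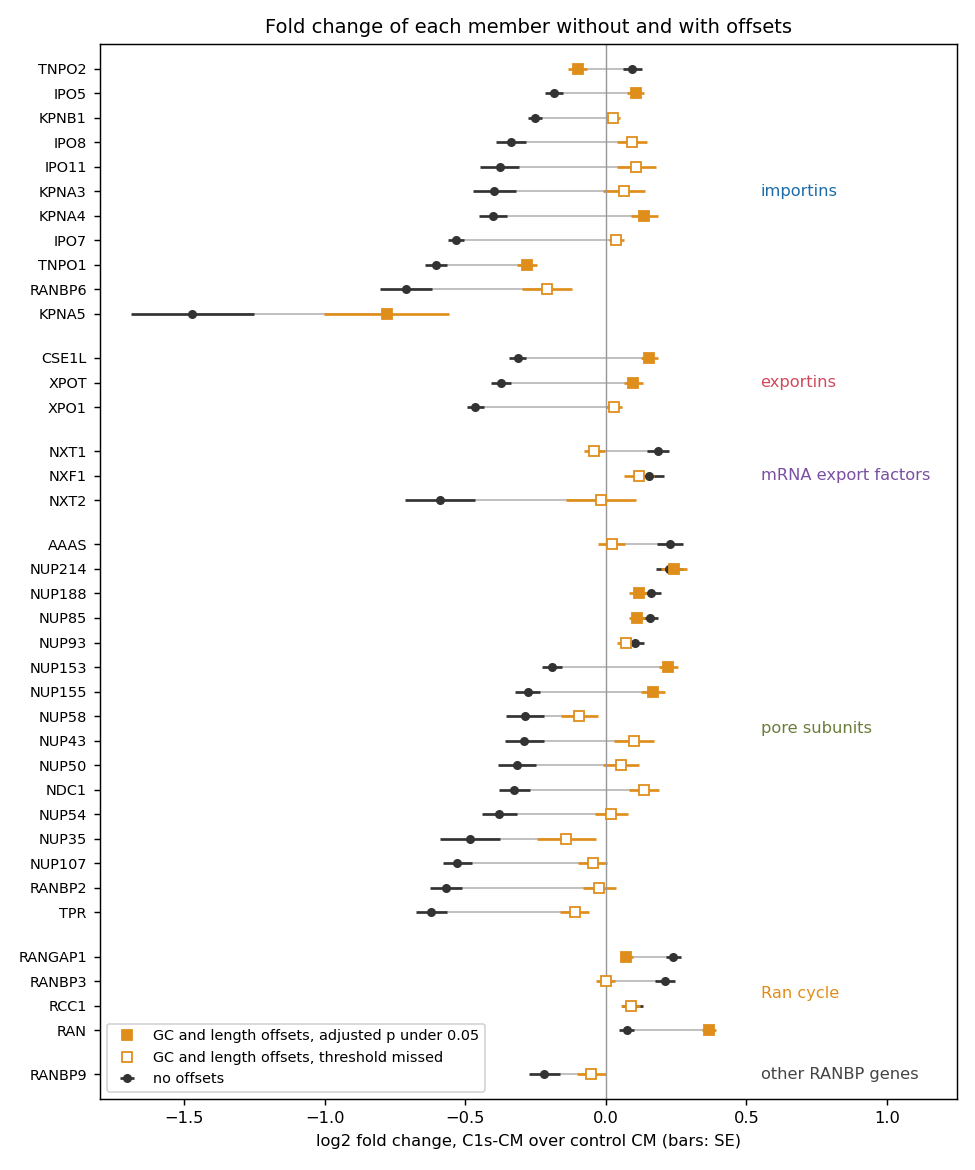
Dots are log2 fold changes of C1s-CM over control CM without offsets and squares those with GC and length offsets, filled where the adjusted p is under 0.05, with bars of 1 SE, and genes grouped by role. With offsets the members lie closer to 0 than without them for most genes, KPNA5 lies lowest at -0.78, and RAN lies highest at 0.37.

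Other genes of the pathway came from lists of symbols outside the rule. Of 16 further pore, Ran and carrier factors 7 had a row, of which 3 rose and 4 fell (42.9% and 57.1%, against 50.9% and 48.5% of all genes tested), with a median of -0.23. AHCTF1, which seeds pore assembly on chromatin, fell (-0.64 ± 0.06), as did the snRNA export adaptor PHAX (-0.45 ± 0.07). NUTF2, the import carrier of Ran itself, was 0.09 higher and the scaffold gene SEC13 0.08 higher. Under library totals as the only scaling 0 of the 3 stayed called higher, where 1336 of the 5116 genes tested were. With offsets SEC13 (-0.12) fell, while AHCTF1, PHAX and NUTF2 missed the threshold.

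Of 22 TREX, TREX-2 and cap-binding export factors 6 had a row, 3 higher and 3 lower, close to the shares over all genes. The export adaptor ALYREF (0.26 ± 0.03), the helicase DDX39A (0.28 ± 0.04) and the THO subunit THOC6 (0.22 ± 0.04) rose. THOC2, another THO subunit (-0.67 ± 0.08), and the cap-binding proteins NCBP1 (-0.30 ± 0.05) and NCBP2 (-0.32 ± 0.05) fell. With offsets none of these 6 passed the threshold, where 25.5% of all genes tested did, and their values lay between -0.13 and 0.13. Cycling-cell markers were read too, and those with a row had likewise passed the authors' own threshold. Of 8 listed, 6 had a row, 1 higher and 5 lower (16.7% and 83.3%, against 50.9% and 48.5% of all genes tested). MCM2 rose (0.19) and TOP2A (-0.63), CDK1 (-0.43), MKI67 (-0.27), CCNA2 (-0.21) and PCNA (-0.17) fell. Transcript GC content was 58.1% for MCM2 and 35.6% to 48.3% for the 5 that fell. The summed level of the 6 was 1876 to 1926 CPM in C1s-CM and 2209 to 2286 CPM in control CM. With offsets CDK1 (0.10) rose, and TOP2A (-0.11) and MKI67 (-0.10) fell. Their part in the values of the transport genes was not tested.

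Some counts are uncertain. By symbol, RAN has 9 annotated pseudogenes and TNPO1 has 3, RANBP2 has 7 closely similar RGPD genes, and 10 members in all have such a look-alike. Exons of 14 members overlap those of another annotated gene, RCC1 with the noncoding RNA SNHG3 on the same strand among them. The sources used here do not say whether reads were counted by strand.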

How the data were processed

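Poly(A) RNA of 6 HMC3 libraries was sequenced from both ends, per the labels' protocols. Per the submitters' processing notes, FastQC 0.11.9, Trim Galore 0.6.7, HISAT2 2.2.1 and DESeq2 1.40.2 were used with GRCh38; the sources used here name no counter, annotation or strand setting. The authors deposited raw counts per gene, only for genes past an adjusted p of 0.05. Their deposited table also gives log2 fold changes and p-values. Counts were tested with edgeR 4.0.16 (R 4.3.3): filterByExpr, TMM, quasi-likelihood, two-sided, 3 against 3 libraries. Standard errors are the log2 fold change over the root of F. Offsets were smoothed in each library by loess (span 0.3) over GC percentage and transcript length, for 5112 genes. The representative transcript follows principal-isoform rank and support level. Every member is named, with full values for the 3 largest rises and falls per class. Members and lists were chosen with earlier results of these data known. The steps were also run on counts simulated with few changed genes, unlike this table of called genes, so that run is no evidence for the values here. Alternatives included DESeq2 1.42.0. Some genes of the further lists are not reported here.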

Additional observations from a re-analysis of the deposited data

How the results depend on the processing

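Of all genes, 5086 were called, 3853 with library totals as the only scaling, 4934 in DESeq2 and 4996 to 5051 with 1 library left out. With GC and length offsets 1303 were called, with the longest transcript 1408, with GC offsets alone 1434, with the replicate block and offsets 1235, and with offsets and 1 library left out 952, 1003, 1019, 1063, 1124 and 1287. Same-numbered libraries did not deviate together (r of -0.128, -0.087 and -0.003), and no label pairs them; the replicate block gave 5054 calls and left 12 members higher and 26 lower, and with offsets it ended the calls of RANGAP1 (adjusted p = 0.0709) and XPOT (adjusted p = 0.0618). Members called higher numbered 12, but 2 with library totals, and 10 to 12 with 1 library left out. Members called lower numbered 26, but 3 with offsets, and 26 in each set of 5 libraries. With offsets 11 members were higher, 6 with GC offsets alone and 7 to 13 with 1 library left out; 3 were lower, 1 with the longest transcript and 1 to 3 with 1 library left out. The sign turned with library totals for NUP93 (-0.0236), RAN (-0.0506), RCC1 (-0.0311) and TNPO2 (-0.0317). It turned with offsets for CSE1L (0.155), IPO11 (0.108), IPO5 (0.106), IPO7 (0.0369), IPO8 (0.0937), KPNA3 (0.0641), KPNA4 (0.137), KPNB1 (0.0263), NDC1 (0.135), NUP153 (0.222), NUP155 (0.167), NUP43 (0.0999), NUP50 (0.0539), NUP54 (0.0199), XPO1 (0.0295), XPOT (0.0974), NXT1 (-0.0409) and TNPO2 (-0.101). Against the values with offsets, it turned with the longest transcript for KPNB1 (-0.0056), NUP54 (-0.0506), NUP58 (0.29), RANBP3 (-0.0215) and TNPO1 (0.0034), and with GC offsets alone for KPNB1 (-0.0287), NXT2 (0.0227) and RANBP3 (-0.0259). With 1 library left out it turned for AAAS (-0.0116), NUP50 (-0.0157), NUP54 (-0.0117 to -0.0014), NXT2 (0.0052, 0.0206, 0.0264 and 0.0670), RANBP2 (0.0126 to 0.0218) and RANBP3 (-0.0134, -0.0074 and -0.0017). The cause was not tested. Depth limits KPNA5 most, the member with the fewest counts.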

Other observations

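Nuclear envelope and lamina genes, from a list of 20 with 9 in the table, had 4 rises and 5 falls (44.4% and 55.6%, against 50.9% and 48.5% of all genes tested). Emerin, EMD (0.28 ± 0.03), the A-type lamin gene LMNA (0.24 ± 0.03), the chromatin tether BANF1 (0.21 ± 0.03) and LMNB2 (0.08 ± 0.03) rose (SE, edgeR). The lamin-binding protein TMPO (-0.36 ± 0.03), TOR1AIP2 (-0.42 ± 0.06), the nesprin SYNE2 (-0.41 ± 0.06), the lamin B receptor LBR (-0.24 ± 0.05) and LEMD3 (-0.33 ± 0.09) fell. With GC and length offsets LBR (0.27) rose, LMNB2 (-0.15) fell and the other 7 missed the threshold, which 25.5% of all genes tested passed. With library totals as the only scaling 3 of the 9 were called higher and 5 lower, against 1336 and 2517 of 5116 genes tested.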
